A study of Homo sapiens with 2 samples.

Results

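The human nuclear genome carries insertions of mitochondrial DNA, and 4 gene entries that lie on such copies were described here: MTRNR2L8, MTRNR2L12, MTRNR2L1 and AL669831.3. They were chosen by gene symbol, with their high read numbers in these same libraries already known, as the rows of the 2 deposited peak lists whose Ensembl gene identifier GENCODE 29 pairs with 1 of the 4 symbols. All 4 were found among 20048 gene identifiers, with 86 of 100792 peak rows in replicate 1 and 82 of 109413 in replicate 2. The values that chose them were reads, so their levels are given as a description with no test.

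The series comprised 2 small-RNA libraries of a single group, labelled TRACER, a word the labels do not explain. Both came from HEK293T cells, an established line from human embryonic kidney, grown with 10% serum and exposed to doxycycline at 3 ug/mL for 24 hours. The molecule was cytoplasmic RNA extracted with Trizol, and the library kit was a Qiagen microRNA protocol. Per its design text the study looked for stretches of RNA bound up with CCR4-NOT, the complex that removes poly(A) tails from mRNAs. Doxycycline was common to both libraries, the labels name no gene that it switches on, and no control library was analysed, which leaves only a description of the 2 libraries. Whether the replicates were separate cultures is not given, and the spread between them may be technical. The peak lists give no level for genes without a peak, so the cell line was not checked against markers. Replicate 1 held 1585446 reads in 96682 distinct peaks, and replicate 2 held 1663907 reads in 105125. Binomial intervals below are exact, at 95%, and cover counting error only.

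Mitochondrial DNA is transcribed from both strands into long precursors, which are cut into rRNAs, tRNAs and mRNAs. Most genes are read from the heavy strand's promoter, and the light-strand transcript carries ND6 and a few tRNAs, with the rest of it antisense to the other genes and normally short-lived. MT-RNR2 is the 16S rRNA of the mitochondrial ribosome's large subunit and contains the short open reading frame of the peptide humanin. The MTRNR2L genes are nuclear insertions of MT-RNR2 that retain a humanin-like frame. AL669831.3 is a long entry annotated as a transcribed processed pseudogene, and a mitochondrial insertion with copies of several protein genes lies inside it.

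MTRNR2L8 (ENSG00000255823) lies on chromosome 11, 10507887 to 10509189, minus strand (GRCh38). MTRNR2L12 (ENSG00000269028) lies on chromosome 3, 96617188 to 96618236, minus strand, and MTRNR2L1 (ENSG00000256618) on chromosome 17, 22523111 to 22524663, plus strand. All 3 are annotated as protein coding. Aligned with MT-RNR2 (mitochondrial positions 1671 to 3229, plus strand), MTRNR2L12 was identical over 95.1% of aligned columns, MTRNR2L8 over 93.1% and MTRNR2L1 over 88.6%. The open reading frames show how small the differences are. They are printed with the stop codon, with bases that differ from MT-RNR2 in capitals, beside the mitochondrial counterpart in GENCODE 29 transcript sequence:
MTRNR2L8, chr11:10508152-10508226, minus strand: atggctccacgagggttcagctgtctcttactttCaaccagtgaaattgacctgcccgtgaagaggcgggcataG
MTRNR2L12, chr3:96617199-96617273, minus strand: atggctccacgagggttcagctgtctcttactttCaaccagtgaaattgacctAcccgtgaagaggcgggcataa
MTRNR2L1, chr17:22524062-22524136, plus strand: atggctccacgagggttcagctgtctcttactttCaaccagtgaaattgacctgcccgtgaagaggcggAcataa
MT-RNR2, chrM:2633-2707, plus strand: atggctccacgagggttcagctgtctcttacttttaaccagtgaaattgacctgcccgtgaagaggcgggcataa
Each frame differed from MT-RNR2 at 2 of 75 bases. Counted from 1 at the frame's first base, with the MT-RNR2 base first, T35C was shared by all 3 copies. The second difference was A75G in MTRNR2L8, G54A in MTRNR2L12 and G70A in MTRNR2L1.

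MTRNR2L12 held 3930 reads in replicate 1 and 2709 in replicate 2, which is 0.248% and 0.163% of peak reads (mean 0.205% ± 0.0602, SD, n = 2). MTRNR2L8 held 3584 and 2285 reads, 0.226% and 0.137% (0.182% ± 0.0627). MTRNR2L1 held 1274 and 829 reads, 0.0804% and 0.0498% (0.0651% ± 0.0216). The largest of the 4 entries was AL669831.3, with 6019 and 3199 reads, 0.380% and 0.192% (0.286% ± 0.132). Replicate 1 was the higher library for every one of the 4. Counting intervals were narrow beside that gap, from 0.219% to 0.234% in replicate 1 against 0.132% to 0.143% in replicate 2 for MTRNR2L8, for example. Together the 4 entries made up 0.934% of peak reads in replicate 1 and 0.542% in replicate 2. AL669831.3 ranked 7 and 14 among all gene entries by reads, MTRNR2L12 14 and 17, MTRNR2L8 17 and 22, and MTRNR2L1 80 and 158. MT-RNR2 ranked 3 in both libraries.

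Per 1000 nt of annotated length, MTRNR2L12 held 3746 and 2582 reads, MTRNR2L8 2751 and 1754, and MTRNR2L1 820 and 534. AL669831.3, taken over its mitochondrial segment of 5842 nt, held 1030 and 548. MT-RNR2 held 17807 and 10498 reads per 1000 nt and MT-RNR1, the 12S rRNA of the small subunit, 15292 and 9875. MT-CO1, which encodes subunit 1 of cytochrome c oxidase, held 4717 and 2251. On this scale the order MT-RNR2, MT-RNR1, then the nuclear copies of MT-RNR2 was the same in both libraries. MT-CO1 lay above MTRNR2L12 in replicate 1 and below it in replicate 2. MTRNR2L1 and AL669831.3 differed by less than the gap between the libraries.

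**Figure D1:**
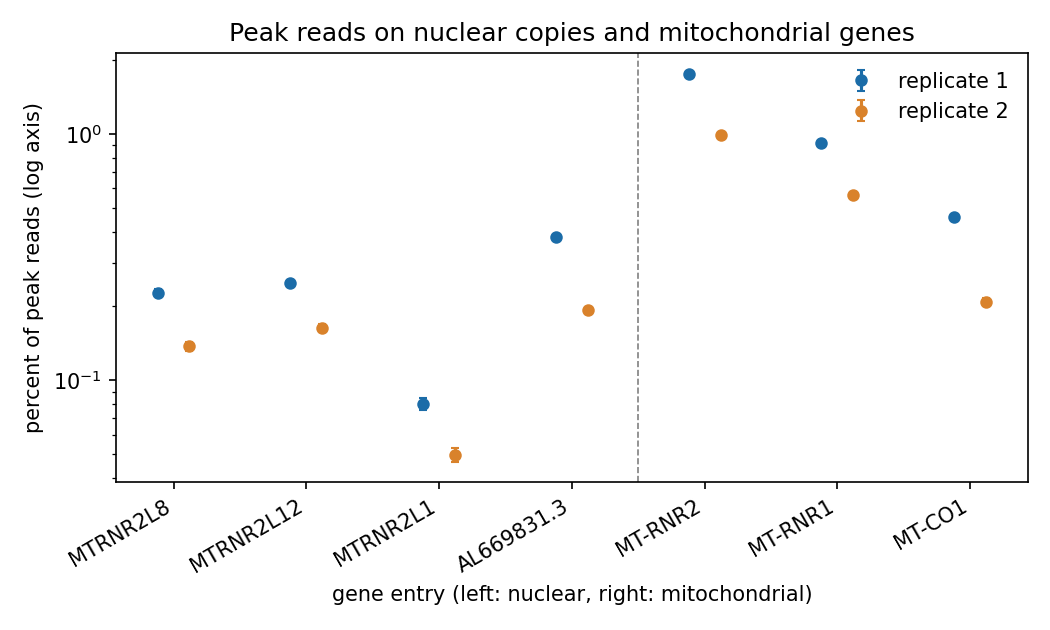
Percent of peak reads (log axis) on each gene entry, 1 point per library, with exact 95% binomial intervals that are mostly smaller than the points. All 7 entries are higher in replicate 1, and the nuclear copies lie from 0.0498% to 0.380%, below MT-RNR2 and MT-RNR1 in the same library.

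The ratio of replicate 1 to replicate 2, after scaling by all peak reads, was 1.65 for MTRNR2L8 (95% interval for counting 1.56 to 1.74), 1.52 for MTRNR2L12 (1.45 to 1.60), 1.61 for MTRNR2L1 (1.48 to 1.76) and 1.97 for AL669831.3 (1.89 to 2.06). All 4 were more than 1.5-fold higher in replicate 1, where 10.3% of the 12739 gene entries with at least 20 reads over both libraries were. These are ratios of replicates, not of conditions. The median over all entries with reads in both libraries was 0.910. With scaling by reads of nuclear protein-coding genes that median moved by 0.13 on the log2 scale, and entries past 1.5-fold were higher in replicate 1 for 45.2% of calls in place of 32.7%. The 4 entries were still more than 1.5-fold higher in replicate 1 under that scaling, as were 13.5% of all entries with at least 20 reads. Without any scaling 3 of the 4 were, against 8.66% of those entries, and MTRNR2L12 had a ratio of 1.45.

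Ratios of the mitochondrial genes themselves were of the same size. MT-RNR2 had 1.78, MT-RNR1 1.63 and MT-CO1 2.20. All 36 mitochondrial genes with peaks were above 1 and 34 of them above 1.5, with a median of 2.07 and a range from 1.31 in MT-ATP8 to 4.28 in MT-TM. Both ends of that range come from unequal numbers of listed peaks. MT-ATP8 had 1 in replicate 1 and 2 in replicate 2, and MT-TM had 2 and 1. By the closeness of log2 ratios over the 2 libraries, MTRNR2L8 lay nearest to MT-ND2 (1.65), MTRNR2L12 to MT-ND6 (1.57), MTRNR2L1 to MT-TA (1.62) and AL669831.3 to MT-ND5 (1.96). With 2 libraries this likeness is a description of 1 number per gene. The 3 copies of MT-RNR2 all had ratios below MT-RNR2's own, with the upper interval bounds of MTRNR2L8 and MTRNR2L12 below 1.75, the lower bound of MT-RNR2. These ratios sum the listed peaks, and MT-RNR2 had 21 in replicate 1 against 16 in replicate 2. MTRNR2L8 had 9 and 8, MTRNR2L12 8 and 8, and MTRNR2L1 13 and 13. How far the number of listed peaks bears on this gap was not tested.

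**Figure D2:**
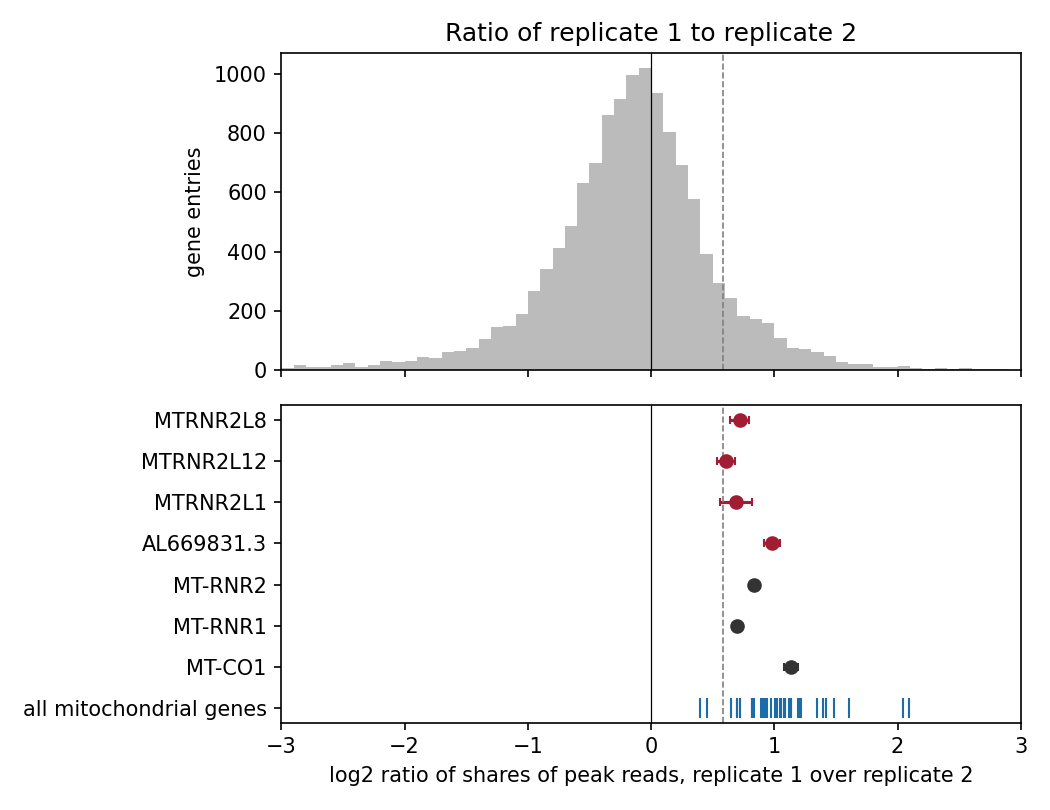
Top, number of gene entries by log2 ratio of replicate 1 over replicate 2; bottom, the 4 nuclear entries (red) and 3 mitochondrial genes (black) with counting intervals, and all 36 mitochondrial genes as ticks, with a dashed line at 1.5-fold. The 4 nuclear entries sit within the range of the mitochondrial genes, to the right of most entries.

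Peak positions recurred between the libraries. Of the 86 peaks of the 4 entries in replicate 1, 79 (91.9%, exact 95% interval 83.9% to 96.7%) shared at least 1 nt on the same strand with a peak of replicate 2, against 60.6% of all peaks of that library. In the other direction it was 78 of 82 (95.1%, 88.0% to 98.7%) against 55.9%. These peaks were deep, with a median of 104 reads in replicate 1 and 62 in replicate 2, and depth bears on recurrence. Its part was not tested. All 13 peaks of MTRNR2L1 recurred in both directions.

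The strongest peaks of the 3 copies of MT-RNR2 are printed with 20 nt on either side, because they show where the peaks lie in relation to the bases that differ. Capitals mark those bases in the copy and in MT-RNR2:
MTRNR2L8, chr11:10508904-10508984, minus strand: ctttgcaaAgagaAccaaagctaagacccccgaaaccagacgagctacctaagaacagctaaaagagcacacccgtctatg
MT-RNR2, chrM:1875-1955, plus strand: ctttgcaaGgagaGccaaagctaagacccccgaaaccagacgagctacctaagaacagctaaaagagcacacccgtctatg
MTRNR2L12, chr3:96617923-96618019, minus strand: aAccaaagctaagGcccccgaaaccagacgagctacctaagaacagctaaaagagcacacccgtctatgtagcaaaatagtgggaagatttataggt
MT-RNR2, chrM:1887-1983, plus strand: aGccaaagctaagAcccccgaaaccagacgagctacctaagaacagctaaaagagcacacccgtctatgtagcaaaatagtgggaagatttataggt
MTRNR2L1, chr17:22523404-22523491, plus strand: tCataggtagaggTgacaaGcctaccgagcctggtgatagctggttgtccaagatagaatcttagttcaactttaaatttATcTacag
MT-RNR2, chrM:1976-2063, plus strand: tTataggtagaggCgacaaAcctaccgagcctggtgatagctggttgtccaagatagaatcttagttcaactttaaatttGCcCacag
All capitals fall in the 20-nt flanks. None of the 3 peaks themselves held a base that differs from MT-RNR2.

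This held for nearly every peak. In replicate 1 the 30 peaks of MTRNR2L8, MTRNR2L12 and MTRNR2L1 covered 910 aligned bases, of which 1 differed from MT-RNR2 (0.110%), while 298 of the 2978 aligned bases outside the peaks differed (10.0%). In replicate 2 it was 1 of 887 (0.113%) against 298 of 3001 (9.93%). The single differing base lay in both libraries in the MTRNR2L1 peak at chromosome 17, 22524438 to 22524478 (157 reads) and 22524438 to 22524477 (94 reads). MTRNR2L8 had 0 of 303 differing bases under peaks against 88 of 998 outside in replicate 1, and MTRNR2L12 0 of 250 against 49 of 797. MTRNR2L1, the most diverged of the 3, had 1 of 357 against 161 of 1183. Bases of 1 gene are not replicates, so no test was made. The last peak of MTRNR2L1 (84 and 47 reads) ran past the end of the aligned MT-RNR2 sequence by 4 and 3 nt.

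Peak edges mostly lay a few bases from the nearest difference, with a minimum of 0 nt in MTRNR2L1 in both libraries. The length of an identical stretch bounds this distance for a peak that lies within it. The distance from a peak's edge to the nearest differing base had a median of 9 nt in replicate 1 and 7.5 nt in replicate 2 for MTRNR2L8, 8.5 and 9 nt for MTRNR2L12, and 4 and 3 nt for MTRNR2L1. The 3 copies together have 172 identical stretches of 1 to 10 nt and 48 of 11 to 23 nt, and none of these held a peak in either library. The shortest stretch with a peak had 24 nt, the limit of the next class, so the empty classes follow from where that limit lies. Of 27 identical stretches of 24 to 39 nt, 12 held a peak in replicate 1 and 11 in replicate 2. Of 15 stretches of 40 to 59 nt, 6 did in each library, and of 9 stretches of 60 to 99 nt all did. Longer stretches also offer more bases for a peak to fall on. The longest stretch was 99 nt in MTRNR2L12, and it held the strongest peaks of any of the 3 copies.

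**Figure D3:**
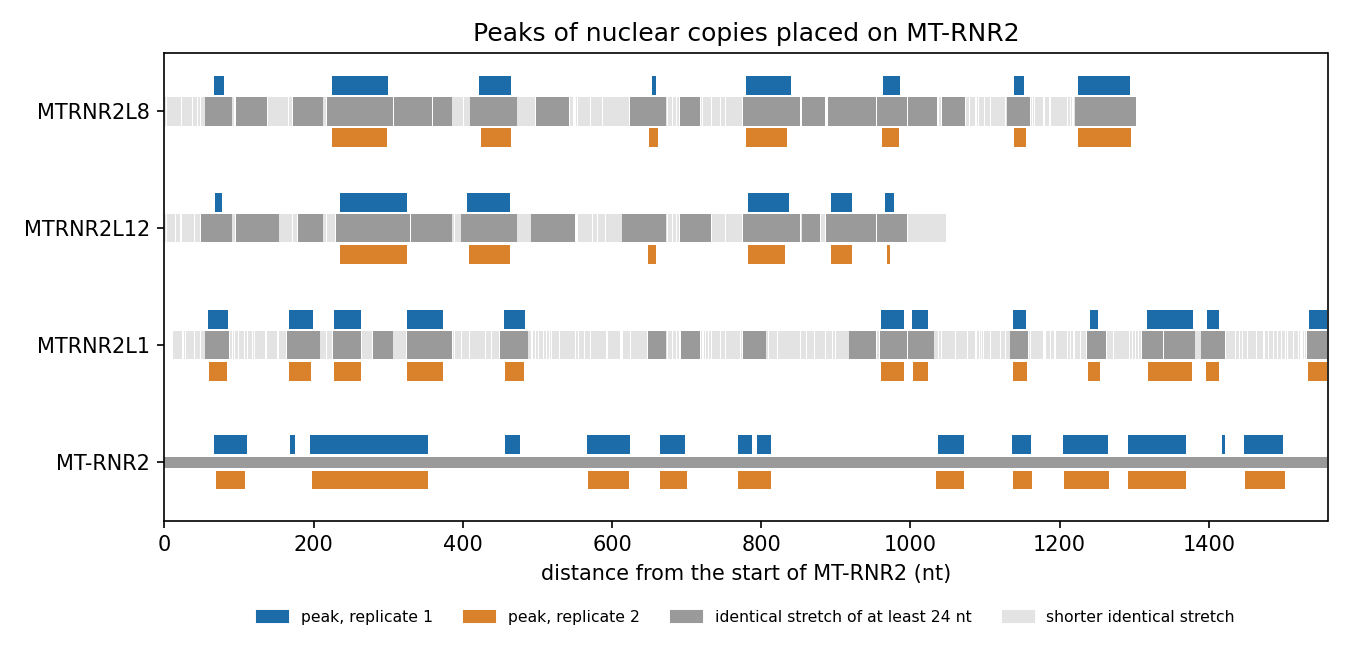
Peaks of the 3 nuclear copies placed by alignment on MT-RNR2 (distance from its start, nt), with replicate 1 above and replicate 2 below each bar, and the peaks of MT-RNR2 itself in the bottom row. The summits of all peaks of the nuclear copies lie in dark grey stretches of at least 24 identical nt. These peaks only partly match those of MT-RNR2.

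The 5 leading peaks of MTRNR2L8 held 870, 792, 649, 481 and 297 reads in replicate 1, and 588, 524, 414, 301 and 196 in replicate 2. On MT-RNR2 they fall at 1895 to 1935, 1936 to 1970, 2895 to 2964, 2450 to 2510 and 2093 to 2134 (replicate 1 borders). The order was the same in both libraries. MTRNR2L12 led with 1393 and 958 reads at mitochondrial positions 1907 to 1963, then 880 and 671 reads at 1964 to 1995. Its next peaks held 480 and 301 reads at 2453 to 2507, 350 and 239 at 2077 to 2108, and 299 and 186 at 2109 to 2133. The leading peaks of both genes overlap on the 16S rRNA sequence. MTRNR2L1 led with 217 and 169 reads at 1996 to 2043, followed by 180 and 131 at 1898 to 1933, 157 and 94 at 3009 to 3049, 104 and 66 at 2631 to 2662, and 104 and 58 at 1838 to 1869.

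MTRNR2L8 and MTRNR2L12 held nearly equal numbers of reads at several sites. Both share the identical stretch 2446 to 2522, and the peaks there held 481 and 480 reads in replicate 1, and 301 and 301 in replicate 2. Over the shared stretch 2626 to 2666 they held 158 and 150 reads, and 97 and 92. Where the identical stretches differed in length the counts were equal at some sites and not at others. Stretches of 62 nt in MTRNR2L8 and 74 nt in MTRNR2L12 held peaks of 297 and 299 reads in replicate 1. A pair with summits 3 nt apart in stretches of 88 and 99 nt held 792 and 1393. Peak borders differed between the genes at both sites. The MTRNR2L8 peak of 297 reads also overlapped an MTRNR2L12 peak of 350. The MTRNR2L12 peak of 1393 reads also overlapped an MTRNR2L8 peak of 870. How far the borders bear on equal and unequal counts was not tested. Of 10 peak pairs with summits at most 3 nt apart, counted over both libraries, 6 differed by at most 6%. Those counts are not independent, since the same reads may be listed at both genes.

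A window of 21 nt centred on each summit was looked up in all GENCODE 29 transcripts. The window occurred in MT-RNR2 for all 17 peaks of MTRNR2L8, all 16 of MTRNR2L12 and 24 of 26 of MTRNR2L1, counted over both libraries. It occurred in another MTRNR2L gene for 17, 14 and 14 of them. Over the windows that occur in MT-RNR2 the sequence cannot tell a nuclear transcript from 16S rRNA. No window of MTRNR2L8 or MTRNR2L12 was found in that gene alone. The other 2 windows of MTRNR2L1, at 1 site in both libraries, were found in no other gene. The peaks there held 31 and 26 reads and no base that differs from MT-RNR2. Whether any of the reads came from nuclear transcripts was not tested.

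Peaks on MT-RNR2 itself overlapped 21 of the 30 nuclear peaks once these were carried to mitochondrial positions in replicate 1 (70.0%, exact 95% interval 50.6% to 85.3%), and 15 of 29 in replicate 2 (51.7%, 32.5% to 70.6%). MT-RNR2 peaks covered 39.3% and 37.5% of that gene's bases. Those shares count single bases, whereas a whole nuclear peak counted as overlapping from 1 shared nt. They are therefore no baseline for the percent of peaks that overlap, and no such baseline was computed. Where peaks overlapped, the strongest overlapping MT-RNR2 peak held more reads than the nuclear one, for example 2451 and 1747 reads over the MTRNR2L8 peak with 649 and 414. Weaker overlapping peaks did not always: the MT-RNR2 peak at 1912 to 1930 held 1179 reads in replicate 1, under the MTRNR2L12 peak with 1393. The weakest peak listed on MT-RNR2 held 725 and 696 reads, whereas the weakest on the nuclear copies held 31 and 26. Peaks on MT-RNR2 all held more reads than any MTRNR2L1 peak.

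At the start of the humanin-like frame all 3 nuclear genes had a peak, and none was listed on MT-RNR2 there in either library. The weakest peak listed on MT-RNR2 held 725 and 696 reads, more than any peak on these frames. The missing row therefore does not show that MT-RNR2 lacked reads there. MTRNR2L2 also had a peak at this site, at mitochondrial positions 2634 to 2658 in replicate 1, with 87 and 52 reads. MTRNR2L8 covered frame bases 2 to 24 with 158 reads in replicate 1 and 1 to 23 with 97 in replicate 2. MTRNR2L12 covered bases 5 to 16 with 150 reads and 7 to 11 with 92. MTRNR2L1 had a peak that reached to base 30 with 104 reads and to base 29 with 66. All of these end before T35C, the difference the 3 copies share. MTRNR2L1 had another peak at bases 41 to 61 (67 reads) and 42 to 62 (45 reads), between T35C and G70A. Frame peaks made up 4.41% and 4.25% of the reads of MTRNR2L8, 3.82% and 3.40% of MTRNR2L12 and 13.4% and 13.4% of MTRNR2L1.

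**Figure D4:**
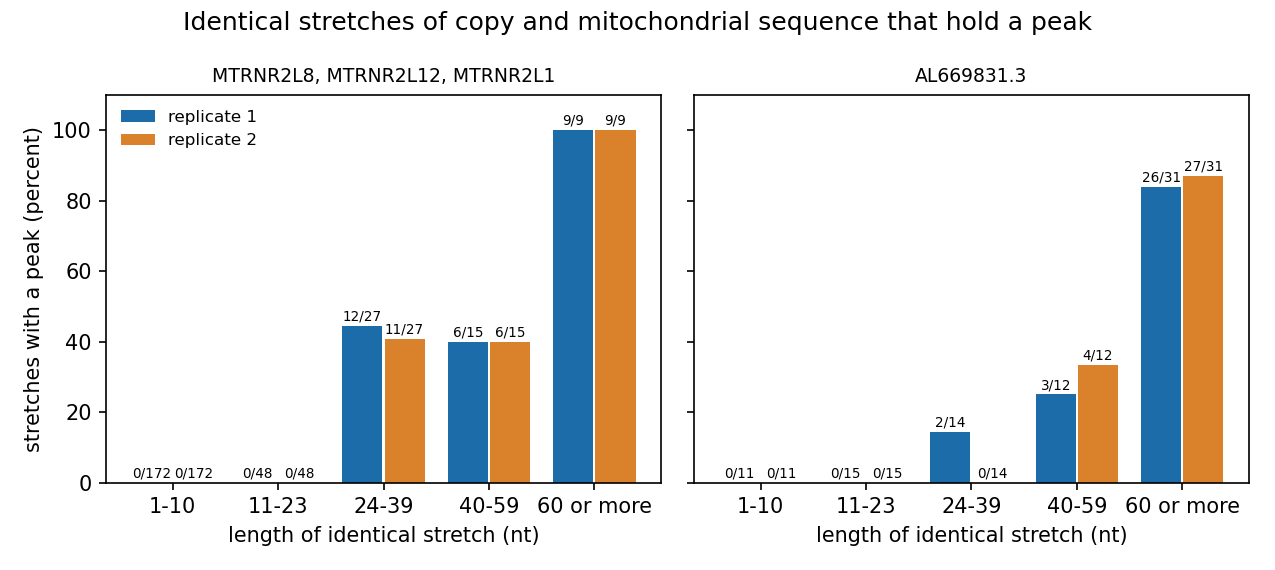
Percent of stretches identical in nuclear copy and mitochondrial sequence that hold a peak, by stretch length in nt, for the 3 copies of MT-RNR2 (left) and the annotated pseudogenes within AL669831.3 (right), with counts above the bars. Stretches under 24 nt hold no peak in either library. In the 3 copies of MT-RNR2 the shortest stretch with a peak has 24 nt, so their empty bins follow from where that limit lies.

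The other 10 MTRNR2L genes extend the range of divergence. 9 of them had a peak, 8 in both libraries, and MTRNR2L5 had none. MTRNR2L10 held 346 and 241 reads, MTRNR2L6 227 and 127, MTRNR2L2 148 and 88, MTRNR2L4 104 and 76, MTRNR2L3 80 and 57, and MTRNR2L11 69 and 47. MTRNR2L9 held 9 and 5 reads, MTRNR2L7 5 and 3, and MTRNR2L13 5 in replicate 1 alone. All 6 with at least 20 reads were higher in replicate 1, 4 of them past 1.5-fold, at ratios from 1.44 to 1.88. Of all gene entries with at least 20 reads, 10.3% were past 1.5-fold in that direction. The median ratio over entries with reads in both libraries was 0.910. Identity to MT-RNR2 was 81.2% in MTRNR2L10 and 77.9% in MTRNR2L13, and the bases in identical stretches of at least 25 nt came to 225 and 56. In MTRNR2L8, MTRNR2L12 and MTRNR2L1 they came to 806, 702 and 558. Across all 13 genes, Spearman's rho between those bases and reads was 0.87 in replicate 1 and 0.88 in replicate 2, a description over genes that share sequence and libraries.

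Most of the weaker relatives held bases under their peaks that differ from MT-RNR2 in replicate 1. Under the peaks of MTRNR2L3, 10 of 93 aligned bases differed from MT-RNR2 in replicate 1 and 4 of 82 in replicate 2, against 15.6% and 15.9% outside. MTRNR2L4 had 2 of 40 and 2 of 39 differing bases under its aligned peak, which held 87 and 61 reads. MTRNR2L10, with the most reads of these genes, had 2 of 123 and 3 of 129, and MTRNR2L6 3 of 95 and 1 of 88. MTRNR2L7 had 2 of 36 and 1 of 33, and MTRNR2L9 1 of 19 and 0 of 18. No base differed in MTRNR2L11 (0 of 32 and 0 of 30) or MTRNR2L2 (0 of 39 and 0 of 38). MTRNR2L13 had 0 of 25 in replicate 1. Some summits lay in identical stretches under 24 nt: 22 nt in MTRNR2L9, and 21 and 22 nt in MTRNR2L3. In MTRNR2L6 such a stretch had 19 nt in replicate 1 and 7 nt in replicate 2. All of these genes held fewer reads than MTRNR2L1, and their peaks were counted on 1 to 3 sites each.

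AL669831.3 (ENSG00000230021) spans 241726 nt on chromosome 1, 586071 to 827796, minus strand, yet its peaks all lay between 629133 and 634913. That interval falls inside a mitochondrial segment whose annotated pseudogenes, all on the plus strand, align from 629081 to 634922, which is 2.42% of the entry's length. The segment corresponds to mitochondrial positions 3911 to 9753. It carries MTND1P23, MTND2P28, MTCO1P12, MTCO2P12, MTATP8P1, MTATP6P1 and MTCO3P12, copies of genes for subunits of complex I, cytochrome c oxidase and ATP synthase. Their identity to the mitochondrial genes ran from 97.6% in MTATP8P1 to 99.1% in MTND1P23. Only 1 peak per library had its summit in an annotated exon of AL669831.3, with 1.96% and 2.63% of its reads.

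In AL669831.3 identity under the peaks was complete where it could be read. Of the peaks that overlap an annotated pseudogene, whose sequence could be read, 46 in replicate 1 and 43 in replicate 2 held no differing base where the sequence could be compared. That is 0 of 1434 aligned bases and 0 of 1252, against 76 of 3572 (2.13%) and 76 of 3754 (2.02%) outside the peaks. The median distance from such a peak to the nearest differing base was 20 nt in replicate 1 and 21 nt in replicate 2. Of 31 identical stretches of 60 nt or more, 26 and 27 held a peak. The strongest of these peaks, opposite MTATP6P1, is shown on the minus strand, with its counterpart opposite MT-ATP6, as an example of a stretch with the same letters in both genomes:
AL669831.3, chr1:634248-634317, minus strand: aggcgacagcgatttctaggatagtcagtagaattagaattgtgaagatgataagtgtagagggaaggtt
mitochondrial genome, chrM:9079-9148, minus strand: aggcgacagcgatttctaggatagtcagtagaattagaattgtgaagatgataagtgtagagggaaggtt
There are no capitals because no base differs. The peak held 285 reads in replicate 1 and 181 in replicate 2.

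Of the 3 strongest AL669831.3 peaks by reads summed over both libraries, 2 lay on copies of tRNA genes that mitochondria encode on the light strand, the strand that corresponds to AL669831.3. The first by that sum, at chromosome 1, 630825 to 630894 in replicate 1, held 306 and 174 reads, below the 181 of the MTATP6P1 site in replicate 2, and corresponds to MT-TN, the tRNA for asparagine. The third, at 630922 to 630979, held 266 and 149 reads and corresponds to MT-TC, the tRNA for cysteine. Their mitochondrial sequences are given to show what these peaks cover:
MT-TN, chrM:5657-5729, minus strand: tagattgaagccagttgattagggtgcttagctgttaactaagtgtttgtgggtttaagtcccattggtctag
MT-TC, chrM:5761-5826, minus strand: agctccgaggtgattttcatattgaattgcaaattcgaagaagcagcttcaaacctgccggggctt
The sequence of the nuclear copy at these 2 sites was not used here, and positions were carried over by the offset between chromosome 1 and the mitochondrial genome, which was equal on both sides. The next peaks by the same sum lay opposite MTCO3P12 (195 and 123 reads) and MTND1P23 (188 and 101 reads), although in replicate 2 the MT-TA copy (108 reads) and the stretch between the MT-TN and MT-TC copies (116 reads) stood above MTND1P23.

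In all, 8 peaks in each library had their summit on the copy of a light-strand tRNA, with 1264 of 6019 and 685 of 3199 reads of AL669831.3 (21.1% over both libraries). Reads there set beside those on the mitochondrial gene were 306 and 174 against 218 and 119 at MT-TN, and 266 and 149 against 128 and 67 at MT-TC. At MT-TA, for alanine, they were 170 and 108 against 136 and 88, at MT-TQ, for glutamine, 236 and 94 against 181 and 46, and at MT-TS1, for serine, 159 and 93 against 94 and 52. At MT-TY, for tyrosine, the order was reversed, with 127 and 67 against 236 and 122. The copies of 5 of these 6 tRNAs thus carried more listed reads than the mitochondrial genes, in both libraries. Some of these sums cover unequal numbers of peaks. The MT-TS1 copy had 2 peaks against 1 on the gene in both libraries, and the MT-TQ copy 2 against 1 in replicate 2.

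Most other reads lay antisense to a pseudogene: 46 and 43 peaks, with 74.9% and 73.6% of the entry's reads. The remaining 2 peaks of each library lay between the MT-TN and MT-TC copies (162 and 116 reads) and opposite the MT-TD copy (87 and 44 reads). On the mitochondrial genome all 17 and 15 light-strand peaks lay on the 9 annotated light-strand genes, and no counterpart of the antisense peaks was listed. Every deposited row is tied to an annotated gene, and no mitochondrial gene is annotated opposite the mRNA genes copied here, so this absence says nothing about antisense mitochondrial RNA. By pseudogene, AL669831.3 held 1070 and 624 reads opposite MTATP6P1, 866 and 443 opposite MTCO1P12, 658 and 343 opposite MTCO3P12, and 603 and 307 opposite MTND1P23. It held 599 and 276 reads opposite MTND2P28, 540 and 293 opposite MTCO2P12, and 313 and 68 opposite MTATP8P1, which overlaps MTATP6P1. A peak of 143 reads in replicate 1 was counted at both of these overlapping pseudogenes. The peak at that site in replicate 2, with 88 reads, was counted at MTATP6P1 alone, so the values of MTATP8P1 cannot be compared between the libraries.

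The pseudogenes had peaks of their own on the plus strand. MTCO1P12 held 4784 and 2745 reads, which is 5.52 and 6.20 times the antisense reads opposite it. MTND1P23 lay the other way, with 299 and 167 reads, 0.496 and 0.544 times those of AL669831.3. MTATP6P1 held 1618 and 851 reads, MTCO2P12 1549 and 823, MTND2P28 1223 and 680, MTCO3P12 1027 and 444, and MTATP8P1 139 and 69. Over the whole segment AL669831.3 held 36.1% of the reads of both strands in replicate 1 and 35.6% in replicate 2. Of the AL669831.3 peaks, 31 of 56 and 31 of 53 overlapped a plus-strand peak.

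**Figure D5:**
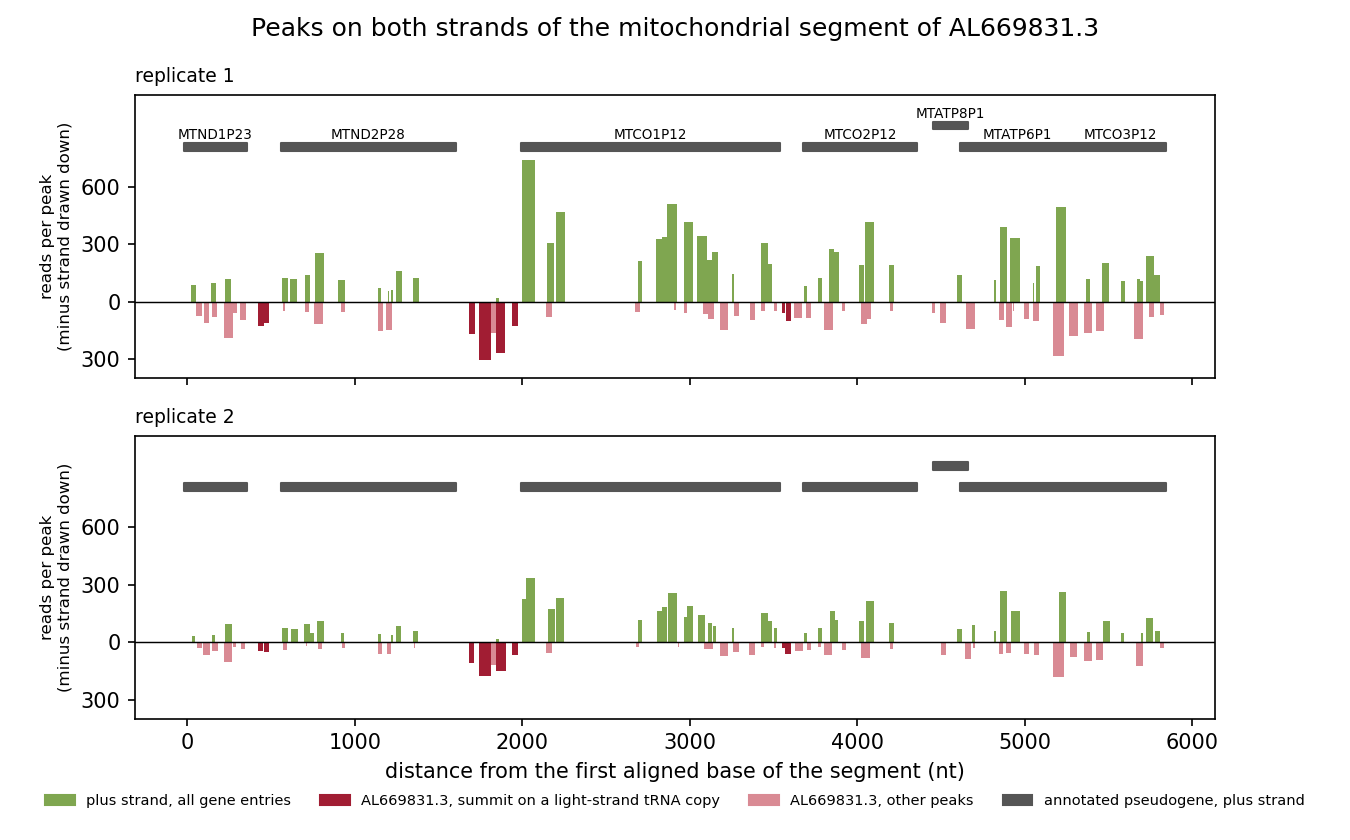
Reads per peak on the plus strand (up) and on AL669831.3 on the minus strand (down) along the mitochondrial segment, as distance from its first aligned base in nt, with 1 panel per library and the plus-strand pseudogenes as bars. The darkest minus-strand peaks mark light-strand tRNA copies, and the one on the MT-TN copy held 306 reads in replicate 1 and 174 in replicate 2.

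MIR6723, an annotated microRNA hairpin at chromosome 1, 632325 to 632413, lies on the minus strand of the segment, opposite MTCO1P12. Its hairpin is printed with the bases under a peak of either library in capitals:
MIR6723, chr1:632325-632413, minus strand: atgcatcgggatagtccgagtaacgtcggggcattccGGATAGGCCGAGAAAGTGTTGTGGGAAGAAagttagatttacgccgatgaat
The peak held 72 reads in replicate 1 and 45 in replicate 2. An AL669831.3 peak at 632346 to 632375 in replicate 1 held 73 reads, and one at 632340 to 632376 in replicate 2 held 50. Both entries lie on the same strand, so these reads cannot be told apart, and the mitochondrial sequence under the AL669831.3 peak there was identical too.

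Among the 394 other annotated pseudogenes of mitochondrial genes, 81 had a peak in replicate 1, 57 in replicate 2 and 312 in neither. All 40 with at least 20 reads were higher in replicate 1, 38 of them past 1.5-fold, with a median ratio of 2.12 and a range from 1.26 to 3.15. The background share for that direction was the same 10.3%. The pseudogenes inside AL669831.3 are among them, so the 2 sets of values share sequence.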

How the data were processed

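The authors deposited 1 peak list per library in BED form. Per the file names, peaks were called by CLIPper after filters on alignment score, mismatches and the number of loci per read (labelled multimap 5). Per the submitters' processing notes, cutadapt 4.2, UMI-tools 1.1.4, STAR 2.7.11 and GRCh38 were used. Neither the labels nor the headers name CLIPper's version or gene annotation. Each deposited row gives a p-value and, within its name, a gene identifier and a count of reads. Of 20048 identifiers 98.8% matched GENCODE 29.

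Reads were summed per gene entry and divided by the reads of distinct peaks. A read placed at several loci may be counted at each. Copies were aligned to mitochondrial genes with Biopython 1.88 (match 2, mismatch -3, gap -5 and -2), and both steps were tested on simulated data. Named genes were the members, 3 mitochondrial genes, other MTRNR2L genes with peaks, the pseudogenes and microRNA gene at AL669831.3, the mitochondrial gene nearest in ratio, and the 5 strongest peaks of each member. The members and lists were chosen with earlier results of these data known. No test between groups was possible with 1 group of 2 libraries.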

Additional observations from a re-analysis of the deposited data

How the results depend on the processing

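Of 36 values under other settings that kept both libraries, 24 stayed within the SD (shares of peak reads) or the 95% counting interval (ratios and percentages) of the reported value, 12 moved and 0 changed direction. Leaving out a library cannot be judged for the shares, since the SD comes from the same 2 values. The strongest peak in place of the sum gave 0.0451% of peak reads for MTRNR2L8, 0.0727% for MTRNR2L12, 0.0119% for MTRNR2L1 and 0.0151% for AL669831.3, and ratios of 1.55 for MTRNR2L8, 1.35 for MTRNR2L1 and 1.77 for AL669831.3. A denominator without nuclear ribosomal RNA copies gave MTRNR2L12 0.269%. Scaling by nuclear protein-coding genes gave ratios of 1.80 for MTRNR2L8, 1.66 for MTRNR2L12 and 2.16 for AL669831.3, and no scaling gave 1.88 for AL669831.3. A single peak or another denominator changes these values by construction; why ratios of single peaks differed from those of the sums was not tested. No member peak had a p-value above 1e-05, so that limit changed only the denominators. Each library alone gave 0.110% and 0.113% of bases differing under the peaks of the 3 MTRNR2L genes. No paired analysis was possible because there was only 1 group. Depth limits what can be said of MTRNR2L7, MTRNR2L9 and MTRNR2L13, with at most 9 reads in a library.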
